A study of Caenorhabditis elegans with 6 samples.

Results

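The 10 genes described here encode proteins that build, cross-link or shed the outer coat of the nematode *Caenorhabditis elegans*, namely *mlt-7*, *mlt-8*, *mlt-9*, *mlt-10*, *mlt-11*, *noah-1*, *noah-2*, *nas-37*, *bli-5* and *fbn-1*. They were chosen by name, and each matched exactly 1 of the 46778 genes in the deposited table, so that 10 of 10 were found. Total RNA was sequenced in 6 libraries, 3 from control animals and 3 from animals treated with JM03, in the series title a derivative of crotamiton, a drug used against scabies and itch. The labels used here name no strain, stage, dose, solvent or exposure time, nor do they state whether the replicates were separate cultures. The p-values therefore cover only the variation among these 6 libraries, which may be technical.

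The cuticle is the collagen-rich extracellular coat that the epidermis secretes. A larva replaces it at each molt: a transient precuticle matrix is laid down on the apical surface, the new cuticle is assembled and cross-linked beneath the old one, and proteases and their inhibitors time the release of the old cuticle. In larvae many of these genes are transcribed in a pulse with every molt, under regulators that include the nuclear receptor NHR-23, and several of them are also used when the epidermis of the embryo makes its first cuticle. Adults no longer molt, and the 10 genes were compared across the 6 libraries as a readout of molting.

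All 10 genes were low in every library. The measure is TPM, a share of transcripts that is already scaled for gene length. Levels of different genes can therefore be set side by side, with a limit. Relative to the other controls, control replicate 3 was lower the longer the transcript (described further on), and it enters the means below. TPM carries no read count, so depth is unknown. The highest single value of any member was 6.85 TPM, and by their mean over the 6 libraries the members lay between the 18.5th and the 47.1st percentile of the 20614 genes above 0 in at least 1 library. In order of that mean they were *mlt-7* (2.43 TPM), *noah-2* (2.25), *noah-1* (1.85), *mlt-8* (1.76), *nas-37* (1.54), *mlt-10* (1.2), *fbn-1* (0.432), *mlt-11* (0.332), *mlt-9* (0.183) and *bli-5* (0.162). Neighbours in this order differed by less than the larger SD of either gene within a group, apart from the step from *mlt-10* to *fbn-1*. *mlt-10* was above *fbn-1* in 6 of 6 libraries, and *nas-37* was above *mlt-10* in 6 of 6, although their means differed by less than the control SD.

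By contrast, transcripts typical of egg-laying adults were abundant. The 10 oocyte and yolk markers summed to 5672.11 to 12778.69 TPM in control libraries against 11448.25 to 14815.32 TPM in JM03. Whole animals were measured, so fewer cells of a type and less RNA per cell cannot be told apart.

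A pair of libraries stood apart for these genes, control replicate 3 at the low end and JM03 replicate 3 at the high end. Summed over the 10 genes, the controls held 11.36, 7.59 and 2.82 TPM and the JM03 libraries 12.87, 11.75 and 26.48 TPM. Control replicate 3 was the lowest library for 9 of the 10 members, and no member reached 1 TPM in it. It was also strictly the lowest for 51.4% of the 20614 genes above 0 and for 64.7% of the 12912 genes tested. Ribosomal RNA took 4.37% of its TPM and 0.338% to 0.639% in the others. JM03 replicate 3 was strictly the highest library for 7 of the 10 members, against 23.2% of the genes above 0 and 24.0% of those tested. Each member's fold change is therefore given with and without these libraries.

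**Figure D1:**
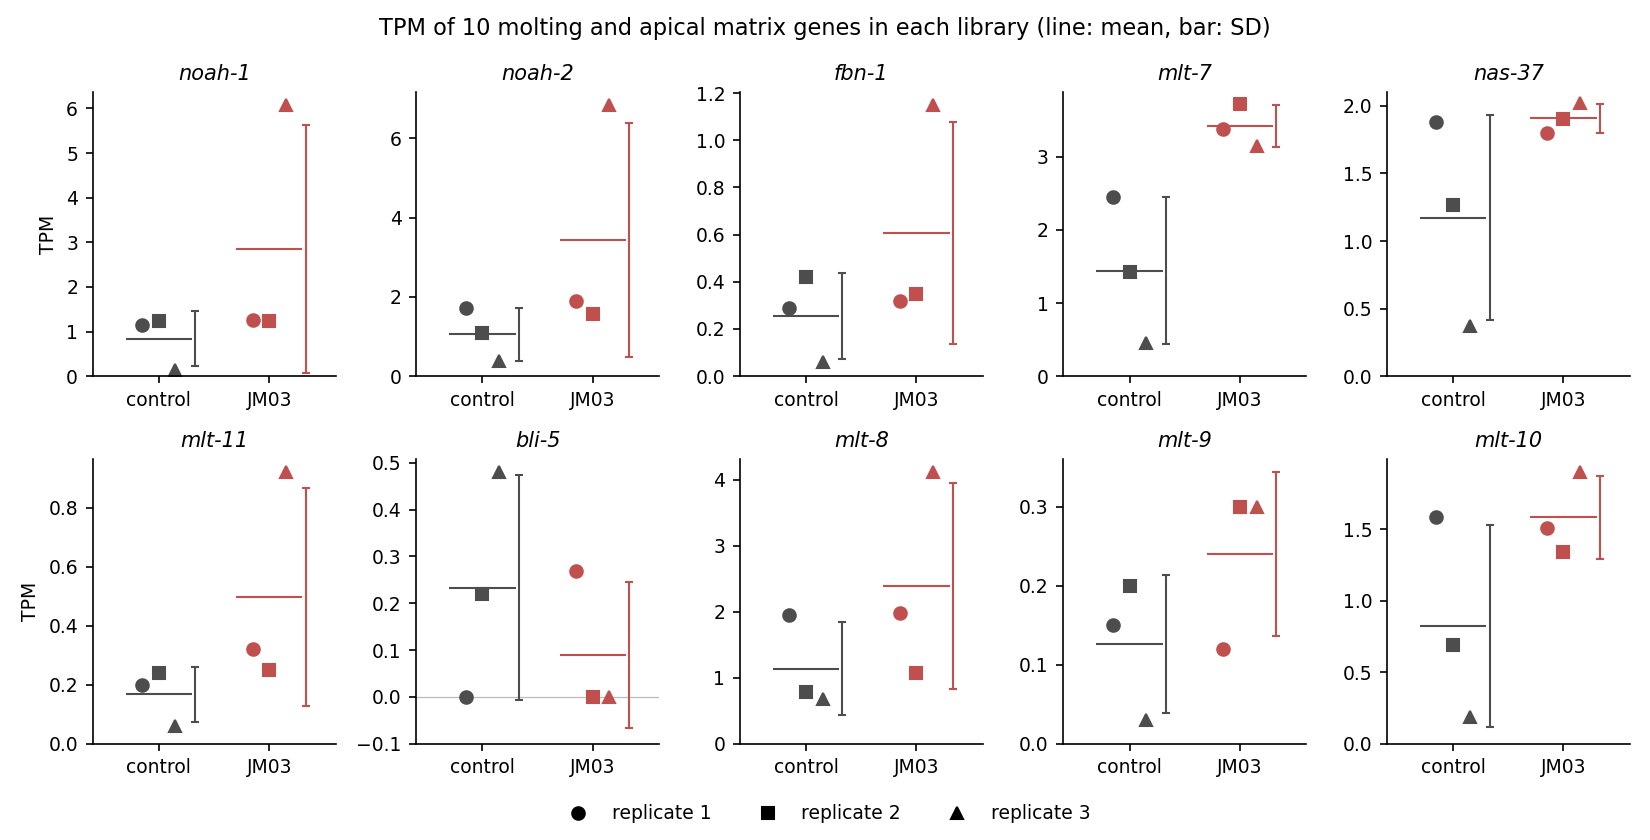
TPM of each of the 10 genes (vertical axis, linear, its own scale in each panel) in the control and JM03 libraries, with a marker shape for each replicate, a line at the group mean and a bar for the SD (n = 3 each). For *noah-1*, *noah-2*, *fbn-1*, *mlt-11* and *mlt-8* the JM03 mean is set by replicate 3, whereas the 3 JM03 values of *mlt-7* lie between 3.15 and 3.72 TPM, above every control.

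The comparison of JM03 with control asked whether treated animals differed in this set. None of the 10 genes passed the test. The test was limma on log2(TPM + 1) across the 12912 genes that reached 1 TPM in 3 or more libraries, with a threshold of 0.05 on the Benjamini-Hochberg adjusted p. It called 0.132% of those genes (17, and 1517 had an unadjusted p below 0.05). Of the members 6 entered this fit and 4 (*mlt-9*, *mlt-11*, *bli-5* and *fbn-1*) lay below its filter. For those 4, values come from the same fit without a filter, over 20614 genes, which called 0.0679% of them and none of the members. Only *mlt-7* had an unadjusted p below 0.05 in either fit. All 6 tested members had a positive log2 fold change, as did 72.7% of all tested genes, whose median was 0.35. The median over the 6 was 0.76, that is 0.41 above the median of all genes, and over all 10 genes without the filter it was 0.53, or 0.39 above. The fits without control replicate 3, JM03 replicate 3 or both called 0.132%, 0.0774% and 0.116% of the 12912 genes, and no member. Without JM03 replicate 3 the median over the 6 was 0.46, which is 0.11 above the median of all genes in that fit. Fold changes refer to log2(TPM + 1), a scale that understates the change of genes as low as these.

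The matrix components come first. *noah-1* (WBGene00016422, I:5874416 to 5878958 in WBcel235, minus strand) encodes a zona pellucida domain protein of the apical matrix that anchors the epidermis and its attached muscles to the cuticle. Control replicates 1, 2 and 3 gave 1.14, 1.24 and 0.13 TPM, and the JM03 replicates, in the same order here and below, 1.27, 1.24 and 6.07 TPM. Replicates 1 and 2 of the groups were alike and overlapped, and the difference between the means lay in the pair of replicate 3 libraries. The log2 fold change was 0.91 ± 0.52 (SE; limma adjusted p = 0.49). Without control replicate 3 it was 0.59 ± 0.554, without JM03 replicate 3 it was 0.36 ± 0.374, and without both it was 0.04 ± 0.18 (limma adjusted p = 0.538, 0.72 and 0.919).

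Its paralogue *noah-2* (WBGene00009926, IV:14091254 to 14096626, plus strand), also a zona pellucida domain protein, had the same shape. It was at 1.71, 1.09 and 0.38 TPM in control libraries against 1.90, 1.58 and 6.85 TPM in JM03. The groups overlapped, since JM03 replicate 2 lay below control replicate 1. In the fit, its log2 fold change was 0.97 ± 0.486 (limma adjusted p = 0.473), and it was 0.20 ± 0.226 without both replicate 3 libraries (limma adjusted p = 0.693).

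*fbn-1* (WBGene00022816, III:7625386 to 7641078, plus strand) encodes a large fibrillin-like matrix protein that helps the embryonic epidermis and the pharynx resist mechanical strain. With 0.29, 0.42 and 0.06 TPM in control libraries against 0.32, 0.35 and 1.15 TPM in JM03, it lay below the filter. Its groups overlapped, and JM03 replicate 3 was the highest library. The log2 fold change without a filter was 0.33 ± 0.228 (limma adjusted p = 0.582), and it turned to -0.02 ± 0.0938 without both replicate 3 libraries (limma adjusted p = 0.961). An exon of *fbn-1* overlaps one of *upp-1* on the opposite strand by 45 nt. *upp-1* was at 63.17 to 138.34 TPM, and the sources used here do not say whether the counting used strand.

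The cross-linking enzyme had higher TPM in every JM03 library than in any control, but it did not pass the test. *mlt-7* (WBGene00022743, II:4393007 to 4404850, plus strand) encodes a secreted haem peroxidase that cross-links cuticle collagens through tyrosine. It was at 2.45, 1.43 and 0.45 TPM in control libraries against 3.38, 3.72 and 3.15 TPM in JM03. All JM03 values lay above all controls, as they did for 21.9% of the tested genes. Among the JM03 libraries its SD was 0.287 TPM around a mean of 3.42, against 1.00 around 1.44 in the controls. The log2 fold change was 0.94 ± 0.348 (limma unadjusted p = 0.0311, adjusted p = 0.374). It was 0.61 ± 0.215 without control replicate 3, 0.98 ± 0.43 without JM03 replicate 3 and 0.65 ± 0.254 without both (limma adjusted p = 0.237, 0.72 and 0.428). Across the 13 alternative settings that hold this gene, the omission of both libraries included, its log2 fold change ran from 0.61 to 1.44 and its adjusted p from 0.173 to 0.72.

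The protease and the inhibitor-type proteins gave unlike values. *nas-37* (WBGene00003553, X:9944844 to 9949063, minus strand) encodes an astacin metalloprotease that digests the old cuticle so that the larva can escape it. It was at 1.88, 1.27 and 0.37 TPM in control libraries against 1.80, 1.90 and 2.02 TPM in JM03. Control replicate 1 lay inside the JM03 range, so the groups overlapped. In the fit, its log2 fold change was 0.48 ± 0.307 (limma adjusted p = 0.49), and 0.18 ± 0.179 without control replicate 3 and 0.16 without both replicate 3 libraries (limma adjusted p = 0.552 and 0.747). Its exons overlap those of C17G1.5 on the opposite strand by 32 nt, a gene at 0.88 to 2.36 TPM in the 6 libraries.

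*mlt-11* (WBGene00012186, V:20667205 to 20678537, plus strand) encodes a large secreted protein with Kunitz domains, the fold of a family of serine protease inhibitors. It was at 0.20, 0.24 and 0.06 TPM in control libraries against 0.32, 0.25 and 0.92 TPM in JM03. The groups did not overlap, but by only the gap from 0.24 to 0.25 TPM, and 16% of the genes above 0 showed JM03 wholly above control. The log2 fold change without a filter was 0.34 ± 0.181 (limma adjusted p = 0.582), and 0.07 ± 0.0729 without both replicate 3 libraries (limma adjusted p = 0.699).

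*bli-5* (WBGene00000255, III:13427640 to 13429768, minus strand), which encodes a small Kunitz-type protein needed for an intact cuticle, was the lowest member. It was listed at 0, 0.22 and 0.48 TPM in control libraries against 0.27, 0 and 0 TPM in JM03. It alone had a negative log2 fold change, at -0.17 ± 0.163 (limma without a filter, adjusted p = 0.608), which was 0.03 without both replicate 3 libraries (limma adjusted p = 0.979), and it alone was highest in control replicate 3. Its exons overlap those of *cope-1*, at 81.19 to 100.44 TPM, by 82 nt on the opposite strand.

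The remaining 3 genes are known from the molting defects of animals that lack their function. *mlt-10* (WBGene00015646, II:546705 to 552032, plus strand), a proline-rich secreted protein made by the epidermis at each molt, was at 1.59, 0.69 and 0.19 TPM in control libraries against 1.51, 1.34 and 1.90 TPM in JM03. The groups overlapped through control replicate 1. Its log2 fold change was 0.57 ± 0.313 (limma adjusted p = 0.483), and 0.21 ± 0.272 without both replicate 3 libraries (limma adjusted p = 0.732).

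*mlt-8* (WBGene00021095, II:569210 to 572110, minus strand) lies 17177 nt beyond the end of *mlt-10*, on the other strand. It was at 1.95, 0.79 and 0.67 TPM in control libraries against 1.98, 1.07 and 4.12 TPM in JM03. In each group replicate 1 was above replicate 2, and control replicate 1 lay above JM03 replicate 2. The log2 fold change was 0.61 ± 0.399 with all libraries and 0.11 ± 0.344 without both replicate 3 libraries (limma adjusted p = 0.49 and 0.886).

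*mlt-9* (WBGene00008605, X:15101786 to 15107797, minus strand) was at 0.15, 0.20 and 0.03 TPM in control libraries against 0.12, 0.30 and 0.30 TPM in JM03. The lowest JM03 library lay inside the control range. Its log2 fold change without a filter was 0.14 ± 0.0955, and 0.04 without both replicate 3 libraries (limma adjusted p = 0.582 and 0.894).

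**Figure D2:**
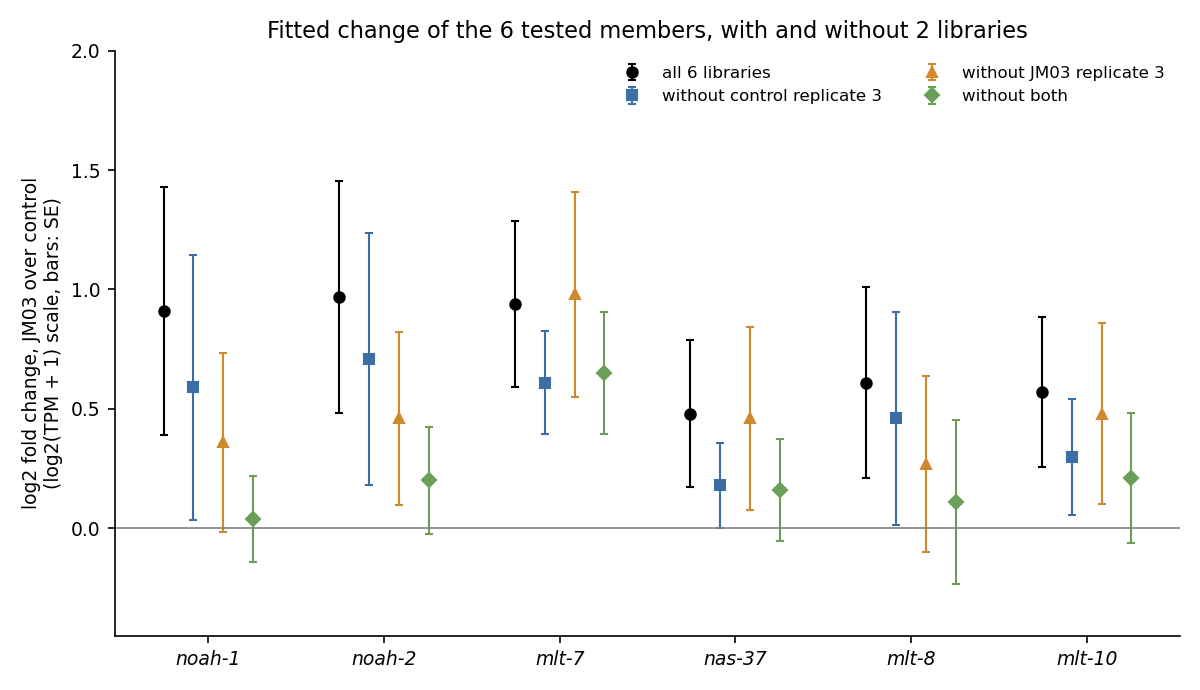
Fitted log2 fold change of JM03 over control on the log2(TPM + 1) scale (vertical axis) for the 6 tested genes, with all 6 libraries and without control replicate 3, JM03 replicate 3 or both, with bars for the SE. Without both libraries *noah-1* lies at 0.04 and *mlt-7* at 0.65, and none of the points passed the test.

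Within JM03, the members differed in how far replicate 3 stood above replicates 1 and 2. The ratio of JM03 replicate 3 to the mean of the other JM03 libraries was 4.84 for *noah-1*, 3.94 for *noah-2*, 3.43 for *fbn-1*, 3.23 for *mlt-11* and 2.70 for *mlt-8*. It was 1.43 for *mlt-9*, 1.33 for *mlt-10*, 1.09 for *nas-37* and 0.887 for *mlt-7*, and *bli-5* was listed at 0 in that library. The high ratios were thus those of the 3 matrix proteins, a Kunitz protein and *mlt-8*, and the ratios near 1 those of the peroxidase, the metalloprotease and *mlt-10*. Of the 7 members with a JM03 mean of at least 0.5 TPM, 4 were at least 2-fold higher in replicate 3, a ratio that 3.91% of 14390 genes at that level reached. This ratio and its limits were chosen after the values were seen, and it compares libraries of the same group, so it says nothing of JM03.

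Some other precuticle genes were also high in JM03 replicate 3, and others were not. Of 19 such genes outside the members, 9 had a JM03 mean of at least 0.5 TPM, and 4 of those 9 were at least 2-fold higher in JM03 replicate 3. *sym-1*, a secreted leucine-rich repeat protein of the embryonic epidermis, was at 1.61, 2.18 and 0.55 TPM in control libraries against 1.73, 1.91 and 13.77 TPM in JM03. Its log2 fold change was 1.06 ± 0.686 (limma adjusted p = 0.49), and it was -0.03 without both replicate 3 libraries. The lipocalin gene *lpr-3* was at 0.79, 0.49 and 3.36 TPM in the JM03 libraries. *let-653*, a zona pellucida domain protein that lines narrow epithelial tubes, was at 0.74, 0.76 and 2.34 TPM, and the leucine-rich repeat gene *let-4* at 0.55, 0.30 and 1.54 TPM. *egg-6*, also a leucine-rich repeat protein of the apical matrix, did not share this: it was at 138.31, 115.06 and 137.97 TPM there. The rest of the 9 had ratios of JM03 replicate 3 to the other JM03 libraries from 0.515 (*cut-6*) to 1.84 (*lpr-6*), with *dex-1* and *lpr-2* between. *lpr-3*, *let-653*, *let-4*, *cut-6*, *lpr-2* and *lpr-6* lay below the filter and are named here after their values were seen.

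The 10 markers of early zygotic transcription in the embryo summed to 0.92 to 3.36 TPM in control libraries against 2.39, 2.95 and 4.38 TPM in the JM03 libraries, and none of the 10 was at 0 in all 6. Only 2 of them had a JM03 mean of at least 0.5 TPM, and 1 of those was at least 2-fold higher in JM03 replicate 3. The 10 epidermis and seam markers summed to 109.53, 102.29 and 123.26 TPM in the JM03 libraries and to 16 to 99.85 TPM in the controls, a sum held mostly by *lin-26* and *egl-18*. Of the 9 with a JM03 mean of at least 0.5 TPM, 4 were at least 2-fold higher in JM03 replicate 3. This was as many as among the precuticle genes. The 4 were *dpy-7* (ratio 6.06), *grd-10* (3.66), *nhr-74* (2.51) and *ceh-16* (2.31), with JM03 means of 0.713 to 1.12 TPM. *grd-10* was at 2.18 TPM in JM03 replicate 3, below the 2.46 TPM of control replicate 1. The others at that level, *lin-26*, *egl-18*, *elt-1*, *elt-3* and *elt-6*, had ratios of 0.979 to 1.22 and JM03 means of at least 3.31 TPM. Genes of this list are named after their values were seen. The 8 body wall muscle markers summed to 576.86, 425.51 and 907.85 TPM in JM03 and 210.09 to 524.08 TPM in the controls, and 3 of the 8 were at least 2-fold higher in JM03 replicate 3. The 8 intestine markers summed to 2156.36, 1747.72 and 1570.36 TPM in JM03 and 769.92 to 1733.72 TPM in the controls. None of these 8, of the 10 oocyte and yolk markers or of 10 sperm markers was at least 2-fold higher in JM03 replicate 3. The part of such tissue or stage differences in the members' values was not tested.

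**Figure D3:**
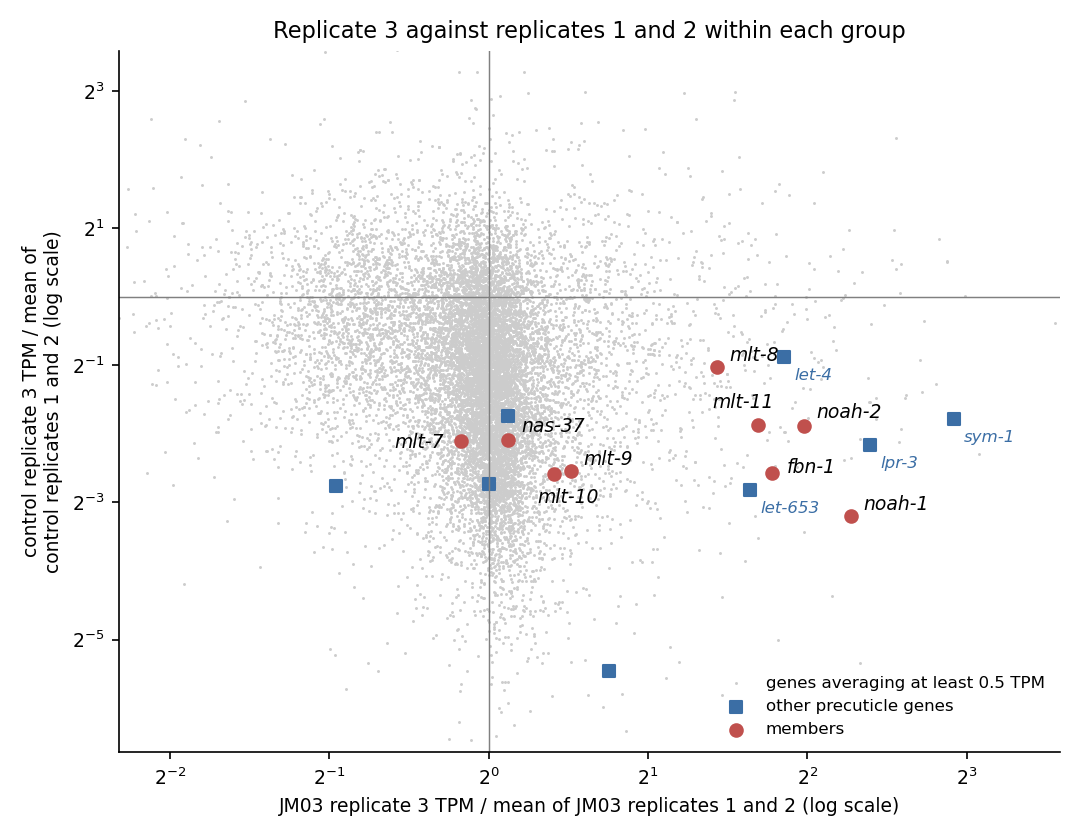
Replicate 3 divided by the mean of replicates 1 and 2, in JM03 (horizontal axis, log scale) and in control (vertical axis, log scale), for genes averaging at least 0.5 TPM in both sets (grey, those at 0 left off), 8 other precuticle genes (blue squares) and 9 members (red, *bli-5* left off since it is at 0 in JM03 replicate 3). *noah-1* lies at 4.84 and 0.109, low in control replicate 3 and high in JM03 replicate 3, while *mlt-7* lies at 0.887 and 0.232.

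In control replicate 3 most members lay near other genes of their transcript length. The ratio of that library to the mean of control replicates 1 and 2 had a median of 0.825 over genes with a longest transcript under 1000 nt, 0.439 from 1000 to 2000 nt, 0.255 from 2000 to 4000 nt and 0.192 at 4000 nt or more. These classes hold only genes with a mean of at least 0.5 TPM in control replicates 1 and 2. *mlt-9*, *mlt-11*, *fbn-1* and *bli-5* lay below that level, with 0.03, 0.06, 0.06 and 0.48 TPM in control replicate 3. *mlt-8*, with 1106 nt, had a ratio of 0.489. *noah-2* (2566 nt), *nas-37* (2539 nt) and *mlt-7* (2515 nt) had ratios of 0.271, 0.235 and 0.232. *mlt-10* (2339 nt) and *mlt-9* (2092 nt) lay lower, at 0.167 and 0.171. *mlt-11*, the longest member with 9766 nt, had 0.273, and *fbn-1* (8858 nt) had 0.169, both within the 0.12 to 0.298 that holds the middle of the genes of at least 4000 nt, from the 25th to the 75th percentile. *noah-1* (3784 nt) was at 0.109, below the 25th percentile of its length class (0.15). *bli-5*, the shortest with 747 nt, had 4.36, from values of 0.48 TPM or less. All 6 members with a mean of at least 0.5 TPM in control replicates 1 and 2 were at or below 0.5 of that mean, as were 52.0% of genes of any length at that level. The 75th percentile of the class from 2000 to 4000 nt was 0.428. JM03 replicate 3 showed no such gradient, with median ratios of 0.943 to 1.03 over the same length classes.

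**Figure D4:**
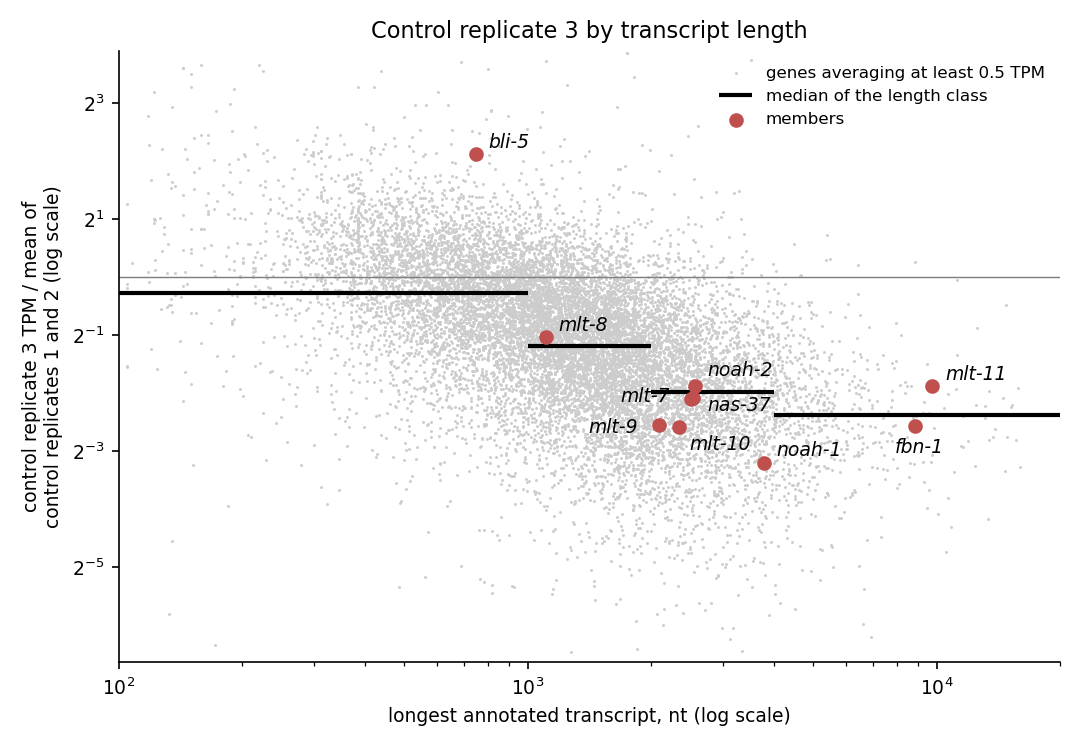
Ratio of control replicate 3 to the mean of control replicates 1 and 2 (vertical axis, log scale) against the longest annotated transcript in nt (horizontal axis, log scale) for genes averaging at least 0.5 TPM in those libraries (grey, those at 0 left off), with black lines at the medians of 4 length classes and the 10 members in red. The medians step down from 0.825 to 0.192, and 9 of the 10 members lie below 0.5.

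The other genes of the molting pathway were described from lists chosen for their roles. None of their members was called in either direction, and those with an unadjusted limma p below 0.05 were *ptc-3*, *skpo-1* and *pdi-2*. Beside the counts and medians below, 72.7% of all tested genes had a positive log2 fold change. The median over all tested genes was 0.35, or 0.046 without control replicate 3. Of 12 timing and transcription regulators 10 were tested, all positive in log2 fold change (8 of them without control replicate 3), and their median was 0.84 (0.28 without that library). *myrf-1*, a membrane-bound transcription factor of larval development, was at 3.01, 2.26 and 0.24 TPM in control libraries against 3.80, 3.48 and 4.54 TPM in JM03 (log2 fold change 0.96, limma adjusted p = 0.464). *lin-42*, the period homologue that paces the molting cycle, and its partner kinase *kin-20* were at 0.87 and 1.03 on that scale (limma adjusted p = 0.473 and 0.469). Without control replicate 3 these 3 were at 0.44, 0.40 and 0.47.

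*nhr-23*, which drives many molting genes in larvae and is also used in sperm formation, was well above them, at 32.75, 37.59 and 3.45 TPM in control libraries against 31.79, 31.88 and 28.66 TPM in JM03. It is named after its values were seen. The JM03 values lay inside the control range. Its log2 fold change was 0.82 ± 0.818 with all libraries and -0.19 without control replicate 3 (limma adjusted p = 0.543 and 0.346), and -0.14 without both replicate 3 libraries. The 10 sperm markers summed to 501.23, 850.89 and 1089.21 TPM in control libraries against 260.19, 310.18 and 183.07 TPM in JM03. That sum was held mostly by the short transcripts *ssp-9* (330 nt) and *msp-3* (384 nt). Their ratios of control replicate 3 to control replicates 1 and 2 were 1.86 and 2.28. Those of the other sperm markers ran from 0.118 (*fer-1*, 6267 nt) to 3.37 (*spe-38*, 655 nt). Genes of this list, too, are named after their values were seen. All 8 tested sperm markers had a negative log2 fold change. Of these, 6 had an unadjusted limma p below 0.05 and none was called. Their median was -1.20, or -1.24 without control replicate 3 and -0.98 without both replicate 3 libraries.

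Of 14 receptors, trafficking and signalling genes 10 were tested and 9 were positive (7 without control replicate 3), with a median of 0.55 (0.19 without it). *ptc-3*, a Patched-related sterol-sensing protein needed for molting, was at 4.19, 3.23 and 1.63 TPM in control libraries against 7.62, 6.66 and 6.93 TPM in JM03. All its JM03 values lay above all controls, as they did for 21.9% of the tested genes. Its log2 fold change was 1.06 ± 0.327 (limma unadjusted p = 0.0146, adjusted p = 0.306), or 0.78 without control replicate 3. The ankyrin repeat gene *mlt-3* had 0.54, or 0.33 without control replicate 3 (limma adjusted p = 0.49 and 0.408). *dab-1*, the adaptor of the megalin-like receptor LRP-1, had 1.68 with all libraries and 0.46 without control replicate 3, where it was at 8.64 TPM against 108.96 to 181.06 TPM in the others (limma adjusted p = 0.49 and 0.233).

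Of 9 further proteases and inhibitors 4 were tested, all positive, with a median of 0.68 (0.37 and 3 positive without control replicate 3). The cathepsin L gene *cpl-1* was at 315.93 to 619.57 TPM in control libraries against 570.3 to 736.7 TPM in JM03 (log2 fold change 0.70, limma adjusted p = 0.432). *cpz-1*, another cathepsin, had 0.35 and the astacin protease *dpy-31*, which trims procollagen, 0.89 (limma adjusted p = 0.49 and 0.473). Without control replicate 3, *dpy-31* was at 0.42. *nas-36*, an astacin with the same role in shedding as *nas-37*, lay below the filter, at 0.88, 1.2 and 0.14 TPM in control libraries against 0.86, 0.67 and 0.82 TPM in JM03, with overlapping groups, and is named after its values were seen.

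Of 8 cuticle cross-linking and collagen processing enzymes 6 were tested and all were positive (5 without control replicate 3), with a median of 0.52 (0.27 without it). *skpo-1*, a peroxidase like MLT-7, was at 149.53, 102.17 and 96.45 TPM in control libraries against 200.8, 170.24 and 189.79 TPM in JM03. The JM03 values of *skpo-1* were all above its controls, again as for 21.9% of the tested genes. Its log2 fold change was 0.71 ± 0.26 (limma unadjusted p = 0.03, adjusted p = 0.372), or 0.59 without control replicate 3. The disulphide isomerase gene *pdi-2*, also a subunit of collagen prolyl hydroxylase, had 1.03, or 0.64 without control replicate 3 (limma adjusted p = 0.406 and 0.256), and its catalytic partner *dpy-18* 0.59 (limma adjusted p = 0.474).

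The other lists were mostly low. Of the 19 further precuticle genes 3 were tested, with a median of 0.95 (0.38 without control replicate 3, 0.02 without both replicate 3 libraries), and 11 were under 1 TPM in every library. *dex-1*, tested beside *egg-6* and *sym-1*, had 0.45, or 0.16 without control replicate 3 (limma adjusted p = 0.49 and 0.674). Of 13 *mltn* genes, named for their likeness to *mlt-10*, 11 were under 1 TPM in every library. *mltn-1*, the tested member, was at 2.89, 2.98 and 0.12 TPM in control libraries against 2.16, 2.93 and 1.71 TPM in JM03, so its log2 fold change of 0.32 turned to -0.29 without control replicate 3 (limma adjusted p = 0.689 and 0.451). Among 4 adult cuticle collagens 3 were under 1 TPM throughout. *col-19*, the collagen made after the last molt, was at 36.20, 6.45 and 19.83 TPM in control libraries against 31.79, 29.30 and 106.28 TPM in JM03 (log2 fold change 1.40 ± 0.739, limma adjusted p = 0.477). JM03 replicate 3 was its highest library and control replicate 2 its lowest, and without one or the other the log2 fold change was 0.81 and 0.77.

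**Figure D5:**
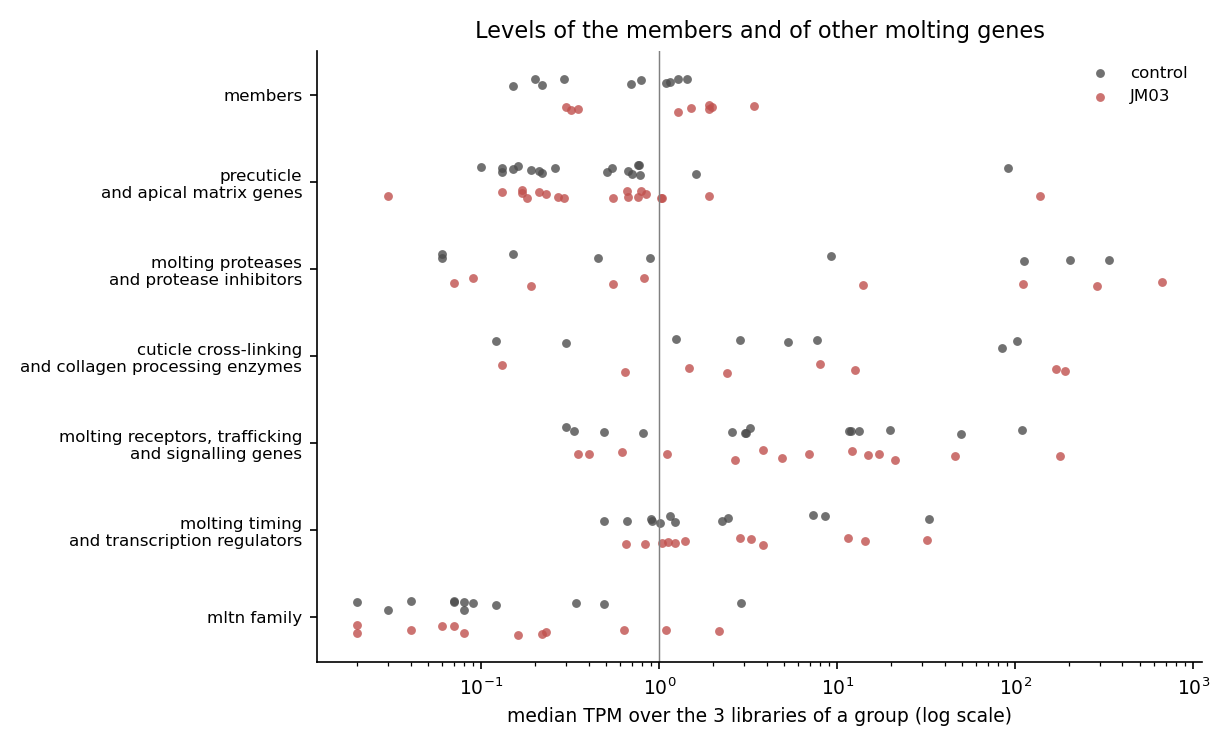
Median TPM over the 3 libraries of each group (horizontal axis, log scale) for the 10 members and for 6 lists of other molting genes, with a point per gene in control (grey) and JM03 (red) and a line at 1 TPM; genes with a median of 0 are left off. Members reach 1 TPM for 4 of 10 genes in control and 6 of 10 in JM03, and regulators for 8 and 10 of 12.

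Among 8979 tested genes with a mean of at least 5 TPM, those whose pattern over the 6 libraries was most like the mean of the 6 tested members were *lbp-1*, B0379.1, *cst-1*, *far-8* and *pqn-39*. Likeness was the root-mean-square distance between centred log2(TPM + 1) profiles. It was 0.0752, 0.0952, 0.11, 0.113 and 0.114 for these genes and 0.192 to 0.348 for the tested members themselves, against a median of 0.514 over all genes compared. The 5 genes were picked as the nearest of 8979, so distances smaller than those of the members follow from the choice. *lbp-1*, a fatty acid-binding protein, was at 77.34, 58.26 and 34.19 TPM in control libraries against 81.19, 81.34 and 123.5 TPM in JM03. None of the 5 was called (limma adjusted p = 0.468 to 0.49). By their means, all members lay below the limit of 5 TPM set for these genes. On this scale the changes of genes as low as the members are understated, so a like pattern does not mean a like fold change.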

How the data were processed

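The authors deposited 1 table with TPM values per gene and library. The unit was inferred: each column sums to 997815.65 to 998883.75. The authors used fastp, HISAT and RSEM with the build WBcel235, per the submitters' processing notes. That build matches the annotation used for coordinates, transcript lengths and overlaps (Ensembl). No tool version, setting or strand use is stated (not given in the sources used here). TPM keeps no depth, so no counting interval can be given. Library columns were matched to samples by title. Of 46778 rows, 11 symbols that had become dates and 210 missing ones were looked up by gene ID.

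The 12912 genes that reached 1 TPM in 3 or more libraries were tested on log2(TPM + 1) with limma 3.58.1 (trend and robust prior) in R 4.3.3, JM03 against control without pairing. The fit was checked on simulated data. There, only genes of higher level than the members were shifted, and by more than any member's fitted change. That check therefore does not cover genes as low as the members. Figures were drawn with matplotlib 3.10.9. The text names all members, up to 3 tested genes of smallest p from each molting list, and the 5 genes of most like pattern, and says where a name falls outside this rule. From the marker lists, sums are given. The members and lists were chosen with earlier results of these data known. Alternatives were quantile normalization, median centring, no filter, a filter at 5 TPM, a pseudocount of 0.1, a non-robust prior, a replicate block and each library left out. Omitting both replicate 3 libraries, and each library in the fit with no filter, were added after seeing the data. Sequences of the genes were not used here.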

Additional observations from a re-analysis of the deposited data

How the results depend on the processing

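No member was called under any alternative that held it, and their lowest limma adjusted p was 0.173, for *mlt-7* without control replicate 1. At a filter of 5 TPM no member was left, so that setting gave no value. The median log2 fold change of the tested members, 0.76, ran from 0.46 to 0.96 when single libraries were left out. It was 1.32 with a pseudocount of 0.1, where the median of all genes was 0.43, and 0.18 without both replicate 3 libraries. The 17 calls over all genes became 10 with median centring and 5 to 17 with single libraries left out (8 when control replicate 2 was omitted, and 5, 6 and 10 when JM03 replicate 1, 2 or 3 was). The cause was not tested.

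Samples with the same replicate number did not deviate together (correlations of their deviations from the group means of -0.02, 0.079 and -0.146 for numbers 1, 2 and 3). The labels do not state whether the numbers pair the samples. With 3 libraries per group, these correlations are too few to decide it. Control replicate 1 correlated best with JM03 replicate 3 (0.291). A fit with a replicate block called 0 genes (the count at an unadjusted p below 0.05 was 1600), and the lowest adjusted p of a member was 0.359.

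Over the 10 members, 104 of 106 alternative values kept their sign and missed the threshold as in the values reported. The sign turned for *bli-5* (0.03) and *fbn-1* (-0.02) without both replicate 3 libraries, which could only move these values that way. Among the other named genes it turned for *sym-1* (-0.03 without both replicate 3 libraries, 0.27 to 1.48 without single libraries), for *mltn-1* (-0.29 without control replicate 3, up to 0.63 without other single libraries, -0.16 without both replicate 3 libraries) and for *nhr-23* (-0.19 without control replicate 3, up to 1.37 without other single libraries, -0.14 without both replicate 3 libraries). Members at or below about 1 TPM rest on values whose depth is unknown, so small differences between them cannot be weighed.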
